A study of Mus musculus with 20 samples.

Results

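Distal peaks centred in untranslated exons were 1775 of the 76716 distal peaks of the merged list, or 2.31% (95% Wilson interval 2.21% to 2.42%), and 1775 of 102373 peaks in all. A member lay more than 1000 bp from every annotated transcription start site (TSS), and its centre base fell in an untranslated region (UTR) of a coding transcript and in no coding sequence. Annotation and start sites were those of GENCODE M21 for mouse build GRCm38. The centre was in a 3′ UTR in 1742 members and in a 5′ UTR in 33, and in 0 members did it lie in both kinds. The host gene was annotated as protein-coding for all 1775. The transcript that gave the position was of type protein_coding in 1645 (92.7%), and 1731 members remained with UTRs of such transcripts only.

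The series held 20 ATAC-seq libraries of ZHBTc4 mouse ES cells in 10 groups of 2 replicates. In these cells the expression of Pou5f1, which encodes OCT4, is under a Tet-Off promoter and is shut off by doxycycline (dox). All groups carried the YPet-MD cell cycle reporter and either SNAP-MD-OCT4, which is degraded as cells divide, or SNAP-MD*-OCT4 with an inactive degron, both expressed from lentiviral vectors under the weak constitutive PGK promoter in sorted populations. For each construct, 4 fractions were sorted after 40 h of dox, which were early G1 and late G1 cells, S phase cells, and cells in late S/G2, giving 16 libraries, and 4 further libraries came from unsorted cells without dox. The deposited list merged the peaks of the dox-treated libraries and gives only a chromosome, a start and an end for each. How many libraries opened a given peak cannot be told, sequencing depth is unknown, no replicate error exists for any peak, and neither the constructs nor the phases could be compared. Cell identity cannot be checked from positions alone. Intervals are at the 95% level, take each peak as independent of the others, and express counting error alone.

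ATAC-seq uses a transposase that cuts DNA where it is free of nucleosomes, and its peaks mark promoters, enhancers, insulators and other open sites. A UTR is transcribed and kept in the mRNA but is not translated. The 5′ UTR lies before the start codon and takes part in the control of translation, whereas the 3′ UTR follows the stop codon and carries the sites of microRNAs, RNA-binding proteins and the polyadenylation machinery. As DNA, the same bases can also bind transcription factors, and regulatory elements that overlap exons are known.

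Several members held close matches to the binding motifs of ES cell factors or of the insulator protein CTCF, and the following windows show them in the genome. They were chosen as the 1 member with a match to the consensus used for the joint OCT4::SOX2 motif and as matches in genes of the lists described further below. That consensus was searched without gaps and was matched in only 0.247% of intronic distal peaks. A member without a match can therefore still hold a divergent site. Each window is read 5′ to 3′ from GRCm38 on the strand that carries the motif, with the matched letters in capitals.
Peg12, OCT4::SOX2: ctccagcATTTGCAAAACAGTGtgctcat
Peg12, ESRRB: ctctttgggtTCAAGGTCAgtttcctggg
Fgf4, ESRRB: gatcagaaatTCAAGGTCAtctttagtga
Eomes, ESRRB: gatcctaaatTCAAGGTCAcgtcaacttc
Eomes, KLF: gcatgggctGCCACACCCAggctttgtg
Etv5, KLF: ggccgagtaGCCACACCCTagagctagc
Fgfr1, CTCF: aaagcaaCCAGCAGGTGGCAGaattgag
Il6st, CTCF: tgacaagCCACAAGGTGGCGCagtacct
Ccnd1, CTCF: catgagaCCACTAGAGGTCGCactgacc
Ezh1, CTCF: taaccccCCAGCAGATGTCAGtttcaga

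The member in Peg12, an imprinted gene on chromosome 7, spanned chr7:62462285-62462955 and lay 878 bases past the stop codon of a 3′ UTR of 1628 bases. Its OCT4::SOX2 match, at chr7:62462651-62462665 on the plus strand, differed from the consensus at 2 positions and sat 38 bp from the peak centre, and the ESRRB match followed at chr7:62462740-62462748 on the other strand. In Fgf4, which encodes a growth factor of the early embryo and is a known target of OCT4 and SOX2, the member at chr7:144864287-144864935 was 649 bp wide and its ESRRB match, at chr7:144864669-144864677, lay 62 bp from the centre. The member in Eomes, a T-box factor of mesendoderm and trophoblast, covered chr9:118482175-118482642, with no exon of the RefSeq annotation at its centre. It held an ESRRB match 16 bp and a KLF match 48 bp from that centre. These letters matched a consensus, and a match is no measurement of binding.

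UTR sequence far from start sites held more peaks per base than introns or intergenic sequence and fewer than coding exons. The density was 56.2 peaks per Mb (53.6 to 58.9) over 31.57 Mb of distal UTR sequence, beside 94.0 in coding exons, 36.3 in introns and 24.8 in intergenic sequence. The ratio was 1.55 to introns (1.48 to 1.62), 2.26 to intergenic sequence (2.16 to 2.37) and 0.598 to coding exons (0.562 to 0.636). The 3′ UTR gave 56.4 and the 5′ UTR 49.7 peaks per Mb, and the interval of the latter (34.2 to 69.8) held the former. With peaks of at least 300 bp the UTR density was 31.2 peaks per Mb and the ratio to coding exons 0.538. The peaks of these classes also differed in median distance to a TSS. It was 6318 bp for members, 5222 bp in coding exons, 9039 bp in introns and 14109 bp in intergenic sequence. The part of this distance in the densities was not tested.

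On the X chromosome the density was 10.7 peaks per Mb (5.55 to 18.8, 12 members), whereas the 19 autosomes ranged from 39.3 to 86.1. Introns and intergenic sequence were low on X as well, with 9.22 peaks per Mb in introns against 30.8 to 49.0 on autosomes, and 6.34 in intergenic sequence against 22.6 to 41.1. Coding exons were not divided by chromosome. The Y chromosome had 0 members in 0.0424 Mb of distal UTR, which allows up to 87.05 per Mb by the exact Poisson interval.

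**Figure D1:**
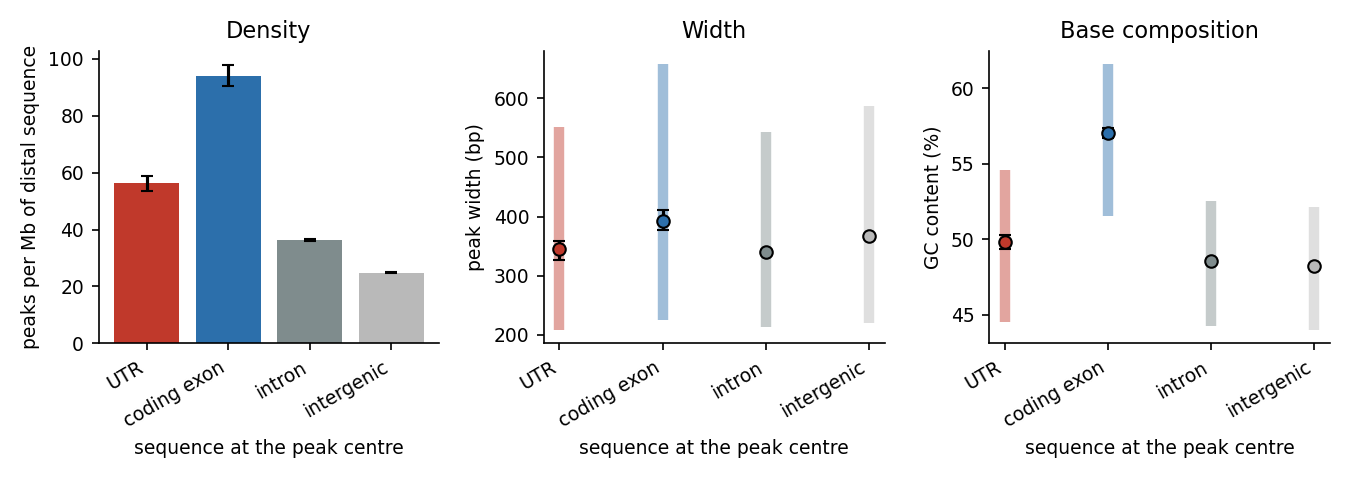
Distal peaks by the sequence at their centre: peaks per Mb of distal sequence of that kind (left, bars with exact 95% Poisson intervals), peak width in bp (middle) and GC content in percent (right), where points are medians with 95% intervals and pale bars span the quartiles. UTR-centred peaks lie between coding exons and introns in density (56.2 per Mb) and in GC content (49.8%), with a median width of 345 bp.

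In width, the members were most like intronic peaks. Their median was 345 bp (326 to 359), with a range from 137 to 2002 bp, beside 340 bp (336 to 343) for peaks centred in introns, and these intervals overlapped. Peaks in coding exons were wider, with a median of 393 bp (377 to 411), and so were intergenic peaks at 367 bp (363 to 371). The gap to intergenic peaks was no longer called when distance was taken from the peak centre, with start sites of protein-coding transcripts only, or with peaks of at least 300 bp, where the medians differed by 11.5 to 17 bp. Of all members 44.5% were narrower than 300 bp.

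In base composition the members stood above introns and well below coding exons. Median GC content was 49.8% (49.3 to 50.3), beside 48.6% in introns, 48.2% in intergenic peaks and 57.02% in coding exons, and none of these intervals overlapped that of the members. The 1000 bp on either side had a median of 46.2%, and 71.3% of members exceeded their own flanks (coding exons 91.7%, introns 75.3%). A CpG island-like composition, meaning at least 200 bp with at least 55% GC and an observed to expected CpG ratio of at least 0.65, was found in 1.75% of members against 16.9% of coding-exon peaks, a difference of -15.15 percentage points (-16.8 to -13.5). It was more frequent in members than in introns by 1.07 points (0.552 to 1.80) and than in intergenic peaks by 0.706 points (0.180 to 1.44). Of 3′ UTR members alone 1.435% had it (0.974 to 2.11), an interval that held the 1.04% of intergenic peaks. Of 5′ UTR members 6 of 33 had it. Repeats were less frequent than outside exons: 5.46% of members were at least 50% soft-masked as repeats, against 11.7% in introns and 18.1% in intergenic sequence. In coding-exon peaks the share was 1.02%, so that members exceeded these by 4.45 points (3.37 to 5.65). Another listed peak lay within 10000 bp of 86.8% of members, which was 7.76 points more than for introns (6.06 to 9.31) and did not differ detectably from coding exons (1.08 points, -1.05 to 3.18).

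Most members lay inside a single exon. Both edges fell within 1 UTR exon in 1364 members (76.8%), while 232 (13.1%) reached coding bases of the same transcript. A peak edge within 10 bp of an edge of the exon was seen in 31 (1.75%). The centre lay within a gene on the opposite strand in 156 members (8.79%) and in UTRs of 2 or more genes in 25, so that the host gene of these cannot be assigned from position alone. The nearest start site belonged to the host gene in 51.9% and to another gene in the rest. In the RefSeq annotation of the same assembly, the centre was in a 3′ UTR for 1426 of the 1742 3′ UTR members (81.9%) and in a 5′ UTR for 22 of the 33 5′ UTR members. For 296 members (16.7%) RefSeq had no exon there.

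The limit of 1000 bp cut through a continuous set of peaks. The members nearest to it lay in the 3′ UTRs of Snapc3 (1001 bp), Tbck (1004 bp), Olfr484 (1004 bp), Coq4 (1008 bp) and Glmp (1012 bp). The peaks left out most narrowly lay in Zfp36l1 (1000 bp), Gatd1 (991 bp), Fam184b (990 bp), Zmynd11 (988 bp) and Cpne5 (985 bp). Among promoter-proximal peaks, 6365 were centred in a UTR and no coding sequence, and of these 6095 lay in a 5′ UTR, 251 in a 3′ UTR and 19 in both.

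Members were spread along the whole 3′ UTR. The median host 3′ UTR was 2555 bases long after splicing, and the median centre lay 1085 bases from the stop codon and 1010 bases from the annotated 3′ end. With the spliced 3′ UTR divided into 3 equal parts, the part next to the stop codon held 29.7% of the centres (27.6 to 31.9), beside 31.4% of the distal 3′ UTR bases of the longest transcript of each gene. The middle part held 36.5% (34.3 to 38.8) beside 33.6% of the bases, and the part at the 3′ end 33.8% (31.6 to 36.0) beside 34.9%. Of these, the interval of the middle part left out its share of bases. By absolute distance, density was 66.4 peaks per Mb (60.6 to 72.7) within 500 bases of the stop codon and 47.9 (40.1 to 56.7) beyond 4000 bases, with no steady fall between them. It was 65.6 from 500 to 1000 bases, 55.2 from 1000 to 2000 and 61.1 from 2000 to 4000. From the annotated 3′ end it was 60.2 (54.9 to 65.9) within 500 bases, 71.3 (64.4 to 78.6) from 500 to 1000 bases, 65.2 from 1000 to 2000, 53.0 from 2000 to 4000 and 42.1 (34.7 to 50.7) beyond 4000 bases.

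**Figure D2:**
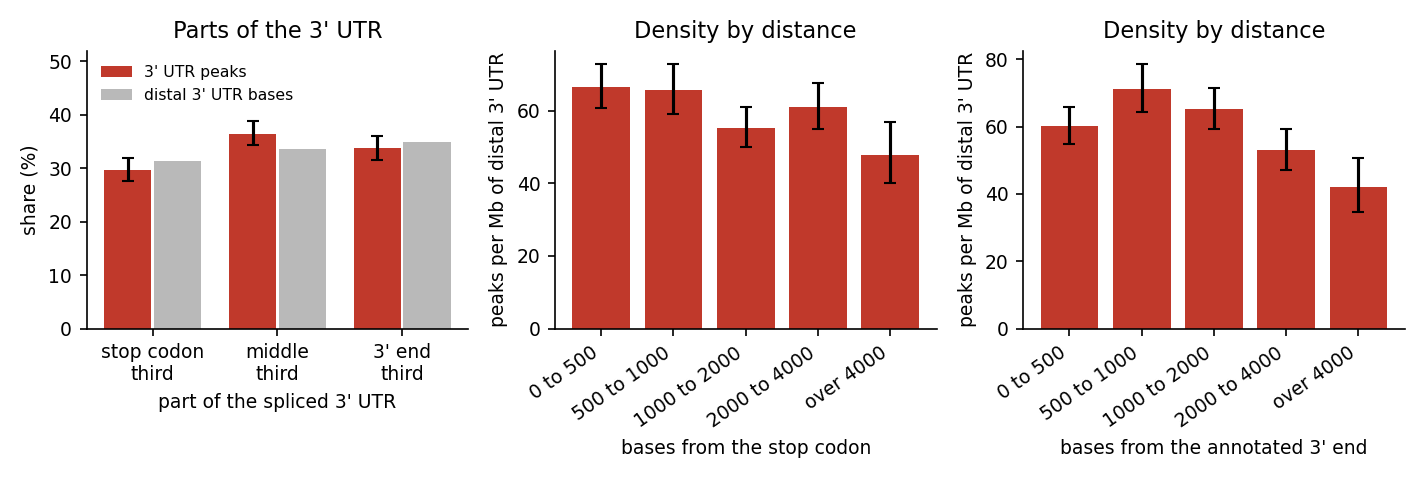
Position of the 1742 3′ UTR members: share in each of 3 equal parts of the spliced 3′ UTR beside the share of distal 3′ UTR bases there (left, percent), and peaks per Mb of distal 3′ UTR by distance in bases from the stop codon (middle) and from the annotated 3′ end (right). Error bars are 95% intervals, Wilson for shares and exact Poisson for densities. The bars beyond 4000 bases are the lowest on both distance axes, at 47.9 and 42.1 per Mb.

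The annotated 3′ end itself lay inside the peak in 181 of the 1742 members (10.4%). The hexamer AATAAA, the most common polyadenylation signal, was present on the transcript strand in 18.5% of them (16.7 to 20.4) and on the opposite strand in 18.1% (16.35 to 19.96), 2 shares that lay within each other's interval.

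The widest 3′ UTR members lay in genes of differing roles. Those of Nkx6-3 (1685 bp, chr8:23157358-23159042) and Isl2 (1631 bp, chr9:55545070-55546700), both homeobox factors of later development, reached past the UTR exon, with 67.4% and 48.9% of their bases in UTRs. Pigv (1468 bp), an enzyme of GPI anchor synthesis, and Dpy19l3 (1466 bp) followed, the latter wholly in the UTR and with a CTCF match 99 bp from its centre. Stat5b (1412 bp), a transcription factor of cytokine signalling, Rad1 (1404 bp), part of a DNA damage checkpoint clamp, Clstn3 (1387 bp), Uck2 (1372 bp), Ceacam19 (1348 bp) and Casq2 (1326 bp) completed the 10. Nkx6-3 and Casq2 had no promoter-proximal peak in the list.

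The 33 members in 5′ UTRs formed a small and less clear-cut set. Their median width was 451 bp (259 to 654) and their median GC content 52.5% (48.9 to 54.8), intervals that held those of the 3′ UTR members (324 to 358 bp and 49.3 to 50.2%). They lay a median of 3561 bp from a start site, against 6408 bp for 3′ UTR members. A 5′ UTR exon is short, and a median of only 52% of a peak's bases was UTR (1715 of 1742 3′ UTR members had at least 50%, against 18 of these 33). CpG island-like composition was found in 6 of 33 (18.2%, 8.61 to 34.4), against 25 of 1742 3′ UTR members (1.435%, 0.974 to 2.11). The widest were in Nhlh2 (2002 bp, chr3:102011442-102013443, 61.3% GC), a neuronal basic helix-loop-helix factor, Pced1b (1345 bp), Nup160 (1147 bp), a nuclear pore subunit, Tmem121 (1146 bp) and Sf3b5 (1091 bp), a subunit of a splicing factor. Nhlh2, Nup160 and Sf3b5 had no peak at an annotated start site, and among all 5′ UTR members the host gene had one in 24 of 33 (72.7%, 55.8 to 84.9), against 1599 of 1742 3′ UTR members (91.8%, 90.4 to 93.0). When only start sites of protein-coding transcripts were counted, the 5′ UTR members were 51, and they were 16 when at least 50% of a peak's bases had to be UTR, whether or not the centre was, and peaks that touched both kinds of UTR were kept apart.

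Motif matches in the members resembled those of other distal peaks more than they differed. The 9 motifs, searched on both strands as consensus letters, were OCT4::SOX2 (up to 2 mismatches), OCT (ATGCAAAT), SOX, KLF, ESRRB (TCAAGGTCA), AP-2, CTCF (up to 1 mismatch), NRF1 and YY1 (AAGATGGC). SOX, OCT and OCT4::SOX2 share letters, and their matches can overlap. CTCF was matched in the largest share of members, 267 or 15.04% (13.5 to 16.8), followed by SOX in 194 (10.9%), KLF in 115 (6.48%), ESRRB in 47 (2.65%), YY1 in 45 (2.54%), AP-2 in 39 (2.20%) and OCT in 33 (1.86%). OCT4::SOX2 had 1 match (0.0563%), against 0.247% of intronic and 0.281% of intergenic distal peaks, and NRF1 had 0 of 1775, which allows a share of up to 0.169% when 3 counts are taken as the limit of a count of 0. The difference for OCT4::SOX2 was -0.191 points to introns (-0.264 to 0.0753), so that a lower share was not detectable with this consensus.

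Against introns no motif differed at the level corrected for 9 motifs (99.4% intervals). That level did not allow for the several classes with which each motif was compared. The closest were CTCF, 1.83 points higher in members (0.206 to 3.60), which passed with peaks of at least 300 bp (4.28 points, 1.74 to 7.03) and with 1 mismatch fewer (1.91 points, 0.905 to 3.10), and SOX, 1.62 points lower (a difference of -1.62, -3.03 to -0.0489). Against coding exons OCT was 1.18 points more frequent (0.504 to 1.97) and CTCF 3.32 points (1.22 to 5.45), and both passed. The OCT difference was not called among peaks of 250 to 450 bp (1.23 points), and that of CTCF was lost with start sites of protein-coding transcripts only (2.74 points) and turned to -2.01 points when 1 more mismatch was allowed. Against intergenic peaks SOX was less frequent by -2.73 points (-4.14 to -1.15), which passed for whole peaks and not for the central 200 bp (-1.63 points) or for peaks of 250 to 450 bp (-3.44 points). Peaks of the classes differ in width and GC content, and the part of these in the shares was not tested beyond the width range named.

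Set against the rest of the distal 3′ UTR sequence, the peaks were richer in several of the motifs. Listed peaks of any class covered 0.804 Mb of distal 3′ UTR, and 29.8 Mb lay outside peaks. CTCF matches were 366 per Mb inside peaks and 22.4 outside, a ratio of 16.3 (14.2 to 18.8). KLF followed with 217 and 27.2 per Mb, a ratio of 7.96 (6.72 to 9.38). The ratio was 3.63 for AP-2 (2.61 to 4.93), 3.55 for ESRRB (2.62 to 4.71) and 1.45 for SOX (1.26 to 1.66), and these 5 motifs passed the corrected level. OCT was 48.5 per Mb inside and 69.1 outside, a ratio of 0.702 (0.498 to 0.963), which did not pass it. YY1 (0.899, 0.658 to 1.20) and OCT4::SOX2 (0.758, 0.154 to 2.26, 3 matches inside) also did not pass. The intervals of these ratios take each match as independent, although 1 peak can hold several. GC content was 50.4% inside peaks and 42.4% outside, and its part in these ratios was not tested. This comparison was added after the data were seen.

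**Figure D3:**
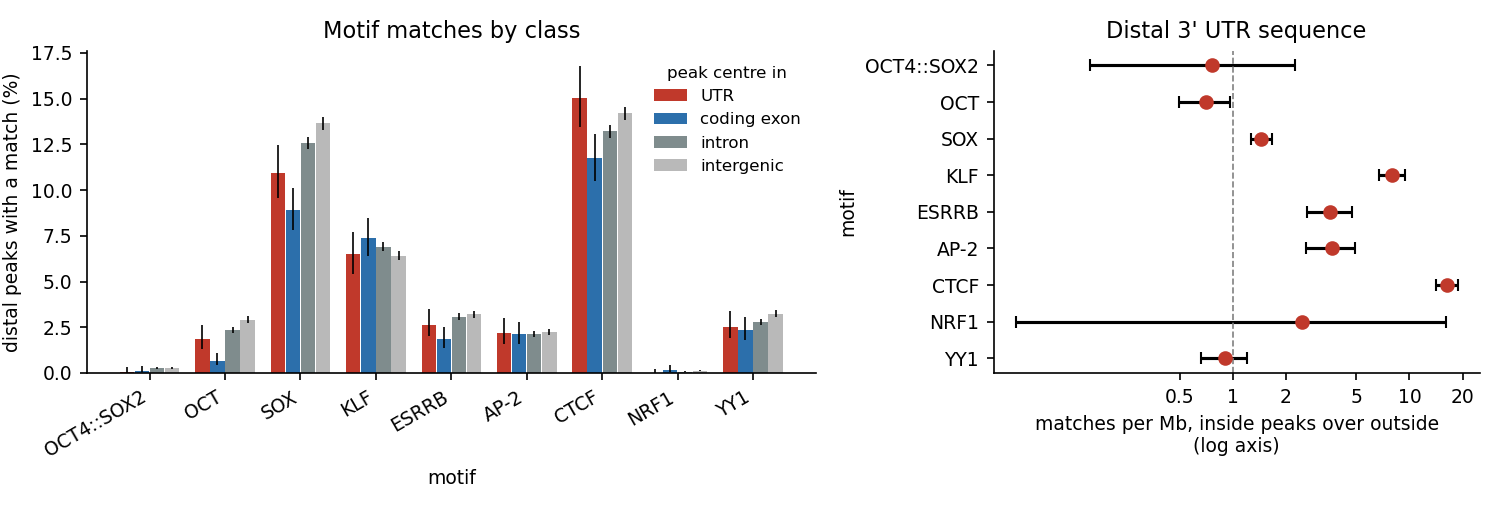
Left, the share in percent of distal peaks with a match to each of 9 motifs by the sequence at the peak centre, with 95% Wilson intervals. Right, matches per Mb of distal 3′ UTR sequence inside listed peaks divided by those outside (log axis, exact 95% intervals, the dashed line marks a ratio of 1). The shares on the left lie close together for most motifs, and on the right CTCF (16.3) and KLF (7.96) stand farthest from 1.

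The transcript gives each 3′ UTR a direction, and motif matches can be counted by strand. Intervals inside and outside peaks take each match as independent, although 1 peak can hold several. KLF matches lay on the transcript strand in 112 of 174 cases inside peaks (64.4%, 57.01 to 71.1) and in 50.7% outside (47.3 to 54.2), a difference of 13.6 points (5.51 to 21.2). With 1 match per member, taken over the whole peak, the share was 59.1% (49.99 to 67.7), an interval that no longer left out 50%. SOX was on the transcript strand in 62.7% inside peaks and in 59.7% outside, a difference of 2.99 points (-3.69 to 9.25), and thus had the same lean in UTR sequence that was not in a peak. CTCF had 49.7% inside peaks (44.0 to 55.3) and 44.8% outside (41.0 to 48.6). Outside peaks OCT (44.9%, 42.7 to 47.0) and ESRRB (43.4%, 39.4 to 47.6) also lay more often on the opposite strand, and for all 3 the interval of the difference between inside and outside held 0.

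Members with 2 or more of OCT4::SOX2, OCT, ESRRB and KLF were few, and they lay in 9 genes. Their frequency was not compared with that of other distal peaks. Ceacam19 and Zbtb40 each held OCT with KLF, and Dnajb13, Rnf122, Slc7a5, Eomes and Rgl1 held ESRRB with KLF. Peg12 held OCT4::SOX2 with ESRRB, and D10Wsu102e held OCT with ESRRB. The OCT match of Zbtb40 and its KLF match lay close together, as these windows show.
Zbtb40, OCT: ctcattgcatATGCAAATcgtttgaact
Zbtb40, KLF: tcccagtcaGCCCCACCCTcctcattgc
Ceacam19, OCT: gattggcaatATGCAAATgagcccctcg
Slc7a5, KLF: ctccctccaGCCCCACCCTtagccattg
In Zbtb40 the 2 matches began at bases 136981585 and 136981604 of chromosome 4. Slc7a5, which encodes a large neutral amino acid transporter, also held a CTCF and 2 SOX matches in its member of 828 bp (chr8:121881599-121882426).

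A less strict OCT4::SOX2 consensus with 2 degenerate letters, added after the data were seen, matched 8 members, in Tspan18, Sprr2a3, Wars2, Mycl, Kcmf1, Dennd5b, Peg12 and Gk5, each with 2 mismatches. Mycl encodes a MYC family factor. The 2 windows below show these letters in a wide and in a narrow member, 577 bp in Mycl and 157 bp in Gk5.
Mycl: ttcctgcCTTTGTTATGCAATGgccacca
Gk5: cgcgttcCTTTGTCATGCATAAagacacg
The share of members with a match differed by -0.383 points from introns (-0.626 to 0.0620) and by -0.436 points from intergenic peaks (-0.682 to 0.00971). From coding exons it differed by 0.154 points (-0.230 to 0.617), and none of these differences was called. Inside peaks this consensus had 11.2 matches per Mb of distal 3′ UTR and outside 16.6, a ratio of 0.675 (0.307 to 1.29).

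Members were found in 1580 genes, or 7.20% of the 21938 annotated protein-coding genes. Of these 1414 held 1 member, 143 held 2, 18 held 3, 4 held 4 and 1 held 5. The share of genes with a member rose with the length of distal UTR, from 1.06% (0.832 to 1.35) of genes with under 500 bp to 24.2% (22.2 to 26.3) of those with over 4000 bp. A promoter-proximal peak of the same gene was present in 90.8% of these genes (89.2 to 92.1), against 70.7% (70.0 to 71.3) of other genes with distal UTR sequence, a difference of 20.1 points (18.4 to 21.6). The difference was 9.43 to 19.1 points within the 5 length ranges, and the interval left out 0 in each.

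**Figure D4:**
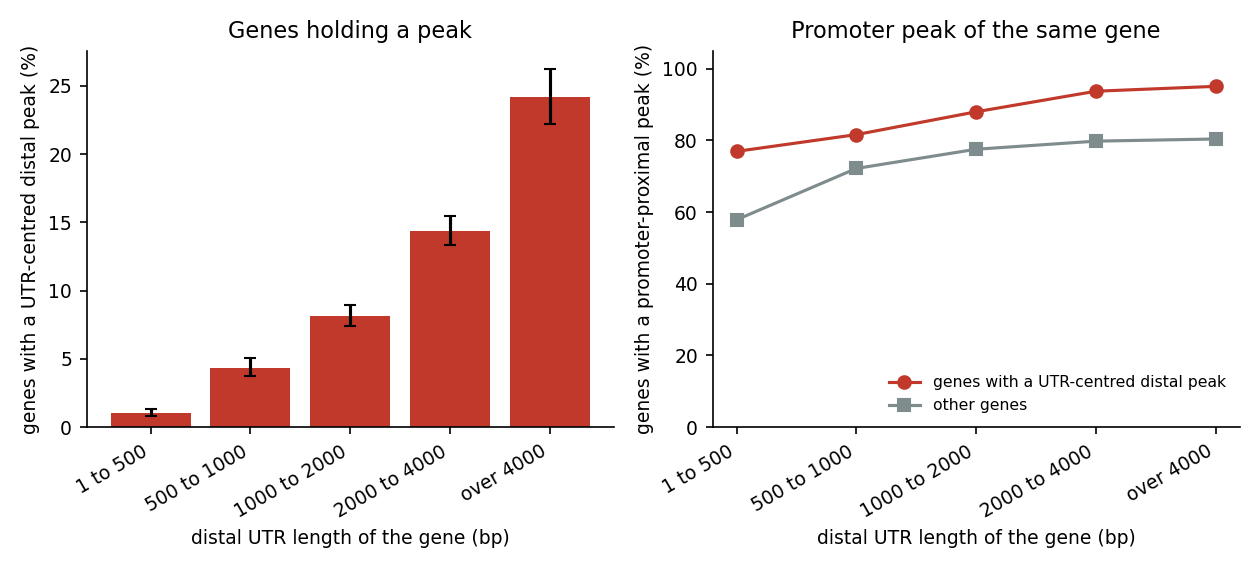
Left, the percentage of protein-coding genes that hold a UTR-centred distal peak, by the gene's length of distal UTR sequence in bp (95% Wilson intervals). Right, the percentage of genes with a promoter-proximal peak, for genes with and without a UTR-centred distal peak in the same length ranges. The left bars rise from 1.06% to 24.2%, and on the right the genes with a UTR peak are higher in every range.

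The genes with the most members had 3′ UTRs of very different lengths. D10Wsu102e held 5, in an annotated 3′ UTR of 122586 bases where RefSeq had no exon at any of the 5 centres, and 4 of the 5 were at least 50% soft-masked, the other at 36.6%. Cdk6, a cyclin-dependent kinase of G1, held 4 along a 3′ UTR of 10220 bases, at 1175, 1783, 6632 and 8318 bases from the stop codon and 149 to 354 bp wide. Eif4g2, a translation initiation factor of the eIF4G family, held 4 at 1502, 2738, 3202 and 3961 bases of 4945. Zfp652 and Gnal also held 4 each, and Nek6, Atf2, Ddi2, Hnrnpd and Kcmf1 were the first 5 of the 18 genes with 3. Not all of these UTRs were long: those of Kcmf1 (1758 bases), of Atf2 (2517 bases) and of 3 of the 4 Gnal members (2077 bases) were below the median host 3′ UTR. RefSeq also had no exon at the centres of those 3 Gnal members, of every Zfp652 and Ddi2 member, and of some Nek6 members. In these shorter UTRs some members were close neighbours. Those of Kcmf1 (chr6:72841064-72841714, 72841725-72841921 and 72841958-72842357) each lay less than 100 bp from the next. So did a pair in Atf2 (chr2:73818322-73818504 and 73818521-73819073) and a pair in Gnal. Joining peaks within 100 bp would merge them, so that the counts of these genes depend on how peaks were split. Hnrnpd encodes an AU-rich element binding protein, and its widest member (1116 bp, chr5:99959139-99960254) held an OCT and 2 SOX matches.

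Genes of 6 lists of 30, each annotated in full, held members as follows, and these counts are read beside the 7.20% of all genes and the length of the UTRs. Of pluripotency genes 4 had a member (13.3%, 5.31 to 29.7). In addition to Fgf4 these were Gdf3, a TGF-beta family ligand (282 bp), Klf5, a Krüppel-like factor (146 bp), and Rif1, a telomere and replication timing factor (427 bp). Of lineage genes 2 had one (6.67%), Eomes and Gata3, a trophoblast and T cell factor (177 bp). Chromatin genes with a member were 4 of 30, namely Smarcd1, a BAF complex subunit (720 bp), Tet1, a 5-methylcytosine dioxygenase (210 bp), Ezh1, a histone methyltransferase of Polycomb (190 bp), and Mtf2, a Polycomb accessory protein (158 bp). Cell cycle genes were also 4 of 30, with Ccnd1, cyclin D1 (355 bp), Cdc25a, a phosphatase that activates cyclin-dependent kinases (359 bp), and Cdk1 (211 bp) beside Cdk6.

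Signalling genes had a member in 8 of 30 (26.7%, 14.2 to 44.5). The widest of these was in Il6st, the shared receptor subunit through which LIF acts (707 bp, chr13:112509319-112510025). It lay 5229 bases from the stop codon and carried a CTCF match at its centre, at a base where RefSeq had no exon. Smad7, an inhibitor of TGF-beta signalling (603 bp), Fgfr1, an FGF receptor (575 bp, chr8:25574893-25575467), and Acvr2b, an activin receptor (562 bp), followed. Smad2 (217 bp), Gsk3b with a pair of members (213 and 201 bp) and the ETS factor Etv5 (180 bp) had narrower ones. The CTCF match of Fgfr1 had 0 mismatches, and those of Il6st, Ccnd1 and Ezh1 had 1 each.

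Genes whose products act on 3′ UTRs held members in 7 of 30 (23.3%, 11.8 to 40.9). The order of these 2 lists depended on the settings, since this list had 9 genes against 8 with start sites of protein-coding transcripts only, and both had 8 with distance from the peak centre and 4 with peaks of at least 300 bp. The 7 genes were Elavl1, an AU-rich element binding protein (619 bp), the microRNA pathway scaffolds Tnrc6b (497 bp) and Tnrc6a (172 bp), the nonsense-mediated decay helicase Upf1 (496 bp), Ago3, an Argonaute protein (401 bp), Cpsf6, a factor of 3′ end processing (270 bp), and Trim71, a let-7 target and RNA-binding protein (215 bp). Median distal UTR length was 3347 bp in this list and 1555 bp in the signalling list, against 892 bp over all protein-coding genes. The other lists had medians from 950 to 1386 bp, and the part of length in the counts was not tested. At least 29 of 30 genes in every list had a promoter-proximal peak, and so had 15453 of all 21938 genes. As in Il6st, RefSeq had no exon at the centres of the members in Eomes, Rif1, Klf5 and Trim71.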

How the data were processed

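ATAC-seq was performed by the authors on 20 libraries, and the deposited list holds merged peaks. Per the labels and the methods, the authors aligned reads to GRCm38 with STAR 2.6.1c, removed duplicates with Picard, called peaks with MACS2 2.1.1.20160309 on read pairs and joined those of the dox-treated libraries with bedtools. The deposited values are coordinates in 3 columns, counted from 0 at the start and printed here from 1, with no score or count. The methods name a filter on peaks over 5 kb. The list nevertheless holds 7 peaks wider than 5000 bp, of which 0 were members. Removal of input and blacklisted regions could not be tested. Merging joins peaks that touch and hides how many libraries share them.

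Distance ran from the peak edge to 132629 distinct TSS of all transcripts. Density divided by assembled bases over 1000 bp from every TSS. Shares have Wilson intervals, differences of shares Newcombe intervals, medians order-statistic intervals and densities exact Poisson intervals, and ratios of rates have exact conditional intervals. A difference was called where its interval left out 0 (for motifs, at the 99.4% level), and medians where the intervals did not overlap. Peaks are not replicates, and no p-value was computed. Where a UTR had several transcripts, the one with the longest spliced UTR was used. Motifs were searched as consensus letters, which miss divergent sites. Sequence was read from the RefSeq GRCm38 genome with Python 3.11.15, numpy 2.4.6, pandas 2.3.3 and scipy 1.17.1, and the classes, the motif search and the intervals were tested on simulated data.

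Named regions were the members in genes of the 6 lists, the 10 widest 3′ UTR and 5 widest 5′ UTR members, the 10 genes with the most members, members with an OCT4::SOX2 match, the 5 peaks on each side of the 1000 bp limit, and members with 2 or more different matches among OCT4::SOX2, OCT, ESRRB and KLF. The members, motifs and lists were chosen with earlier results of these data known. Alternatives changed the distance, the annotation, the width, the masking, the joining of peaks within 100 bp and the motif settings. The values of 1 gene of the signalling list are not reported here.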

Additional observations from a re-analysis of the deposited data

How the results depend on the processing

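Each result was recomputed under the alternatives that apply to it, 425 values in all. Of these 396 kept their direction and their side of the threshold or stayed close to the reported value, 7 lost a call, 5 gained one, 16 moved and 1 reversed. Peaks of at least 300 bp left 986 members, 965 in 3′ and 21 in 5′ UTRs, with 31.2 peaks per Mb and ratios of 0.538 to coding exons and 2.10 to intergenic sequence, and left 2 pluripotency, 1 lineage, 1 chromatin, 4 signalling and 4 genes of 3′ UTR regulators with a member. The width difference to intergenic peaks was then -11.5 bp and not called, nor was it with distance from the peak centre (-17 bp) or protein-coding start sites (-16 bp). CTCF was then called against introns (4.28 points) and intergenic peaks (3.89 points), and against introns also with 1 mismatch fewer (1.91 points). With 1 mismatch more, CTCF against coding exons reversed to -2.01 points, and OCT4::SOX2 was called against intergenic peaks (-1.08 points). Protein-coding start sites gave 51 5′ UTR members, called SOX against coding exons (2.62 points) and lost CTCF (2.74 points). The requirement that at least 50% of a peak's bases be UTR, in place of the centre base, gave 16 5′ UTR members, with peaks that touched both kinds kept apart. With peaks over 5000 bp and those soft-masked over at least 0.8 of their length left out, the ratio to intergenic sequence was 2.40. The part at the 3′ end held 31.55% with UTRs of protein_coding transcripts only, and the part at the stop codon 27.6% with the shortest UTR. SOX against intergenic peaks was lost in the central 200 bp (-1.63 points) and among peaks of 250 to 450 bp (-3.44 points), where OCT against coding exons was lost too (1.23 points). The cause of these changes was not tested. No paired analysis was possible because merged peaks carry no value of a single replicate, and for the same reason no replicate could be left out and depth is unknown.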

Other observations

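One window recurred exactly in members of different genes. The member in the 3′ UTR of Rad1 on chromosome 15 (chr15:10496053-10497456) and one in D10Wsu102e on chromosome 10 (chr10:83375439-83376568) both held the SOX window below, and 50.9% and 84.4% of their bases were soft-masked as repeats.
Rad1: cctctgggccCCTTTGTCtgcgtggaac
D10Wsu102e: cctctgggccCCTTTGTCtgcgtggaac
Whether the reads behind these peaks were placed uniquely was not tested.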
